A study of Mus musculus with 11 samples.

Results

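Cultured mouse microglia given LPS with IFNg, the stimulus of classical activation, were compared with microglia given IL-4, the stimulus of alternative activation. The members of the comparison were the 2 arrays with the treatment label LPS/IFNg and the 3 with the label IL-4, among 11 arrays in the series, and every gene detected on at least 2 of the 11 arrays was tested, which left 8952 genes. The cells were primary microglia from the brains of newborn C57BL/6J mice. LPS at 100 ng/ml was given together with IFNg at 20 ng/ml for 16 h, and IL-4 at 100 U/ml for 48 h. The other arrays held untreated cells (3 arrays, no time in the labels) and cells given TGFb (3 arrays), and the untreated arrays serve below as a reference level. Stimulus and time cannot be told apart in this comparison, because all LPS/IFNg cells were taken at 16 h and all IL-4 cells at 48 h. The labels do not say whether replicates were separate cultures or animals, so the tests reflect no more than the spread among these arrays, which may be technical.

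Microglia are the resident macrophages of the brain. LPS, a component of the bacterial outer membrane, is sensed by TLR4 with its co-receptor CD14 and activates NF-kB and interferon regulatory factors, while IFNg acts through its own receptor. IL-4 acts through the IL-4 receptor alpha chain and STAT6, and in mouse macrophages it is known for inducing arginase and a set of secreted lectin-like and resistin-like proteins. In macrophages the same amino acid, arginine, feeds nitric oxide synthase in the classical state and arginase in the alternative state.

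Levels are log2 signals after background correction and quantile normalization, in which values of about 4.3 to 5 lie at the array background, and differences are LPS/IFNg minus IL-4 with their SE. The LPS/IFNg arrays detected 12427 and 12617 probes and the IL-4 arrays 13648 to 14200. A principal component analysis of the 5 arrays gave a first component, with 79.8% of the variance, that separated the groups and a second, with 13.3%, that set IL-4 replicate 1 apart from the other IL-4 arrays. That array correlated with the other IL-4 arrays at 0.945 and 0.954 across genes, against 0.987 between those and 0.982 between the LPS/IFNg arrays (genes are not independent). It had 388 genes at least 1 log2 unit above both other IL-4 arrays, of which 149 were called higher with LPS/IFNg. The 4 tested markers of fibroblasts and mural cells, of 12 in the list, had a summed signal of 3482 there, against 115.8 and 176 on the other IL-4 arrays and 150.5 and 247.7 on the LPS/IFNg arrays, and the 6 tested astrocyte markers, of 12, had 2496 against 143.2 to 251.4. Gja1, an astrocyte gap junction protein, was at 11.15 on IL-4 replicate 1 and at 4.40 to 6.08 on the others of the 5 arrays. The part of these cells in the results was not tested. Where leaving out 1 of the 5 arrays moved the fold of a gene named below, or a count over a list, by more than 1.5 times, the value without that array stands beside it. Without IL-4 replicate 1 the fold moved that far for 32 of the 113 described genes called higher, always towards a larger difference, and for 8 of the 104 called lower. Of the markers of microglia and macrophages 16 of 18 were tested, 4 of them higher and 7 lower with LPS/IFNg (68.8% called, beside 40.0% of all genes). All 16 were detected on at least 1 IL-4 array and 14 on at least 1 LPS/IFNg array, with P2ry12 and Tmem119 detected on neither LPS/IFNg array. Laptm5, a lysosomal membrane protein (13.65 to 14.83 on the 5 arrays), and Csf1r, the receptor for colony stimulating factor (10.02 to 13.10), were detected on every array compared.

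The stimuli separated the cells across much of the detected transcriptome. By limma's moderated test with Benjamini-Hochberg adjustment over all 8952 genes, 3577 genes (40.0%) were called at an adjusted p below 0.05. Of these 1470 (16.4% of tested genes) were higher with LPS/IFNg and 2107 (23.5%) lower. At least 2-fold differences among the called genes numbered 854 higher (9.54%) and 1271 lower (14.2%), and 83 genes were higher and 37 lower by at least 16-fold. The levels of the groups did not overlap for 5459 genes (61.0%), and 3568 (39.9%) were also called. In these bulk samples, fewer cells of a type and less RNA per cell cannot be told apart. The median difference of all genes was -0.10, and the share of higher genes among the called depended on the scaling: it was 41.1% here and 27.4% with median scaling (953 higher and 2519 lower), which moved the median of all genes to -0.31. All 3577 genes kept their direction under median scaling. Of the tested genes 213 would not have passed the detection limit without the LPS/IFNg arrays and 296 not without the IL-4 arrays, so a higher level there follows from the limit. Beside genes marked below, the former include Nos2, Ptgs2, H2-Aa, Nlrp3 and Serping1, and the latter Chil3 and Rnase2a. Counts of lists with at least 4 such members are also given without them. The smallest number of calls with 1 array left out was 2358, without LPS/IFNg replicate 3. An exact permutation test of 2 arrays against 3 cannot give a two-sided p below 0.1.

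**Figure D1:**
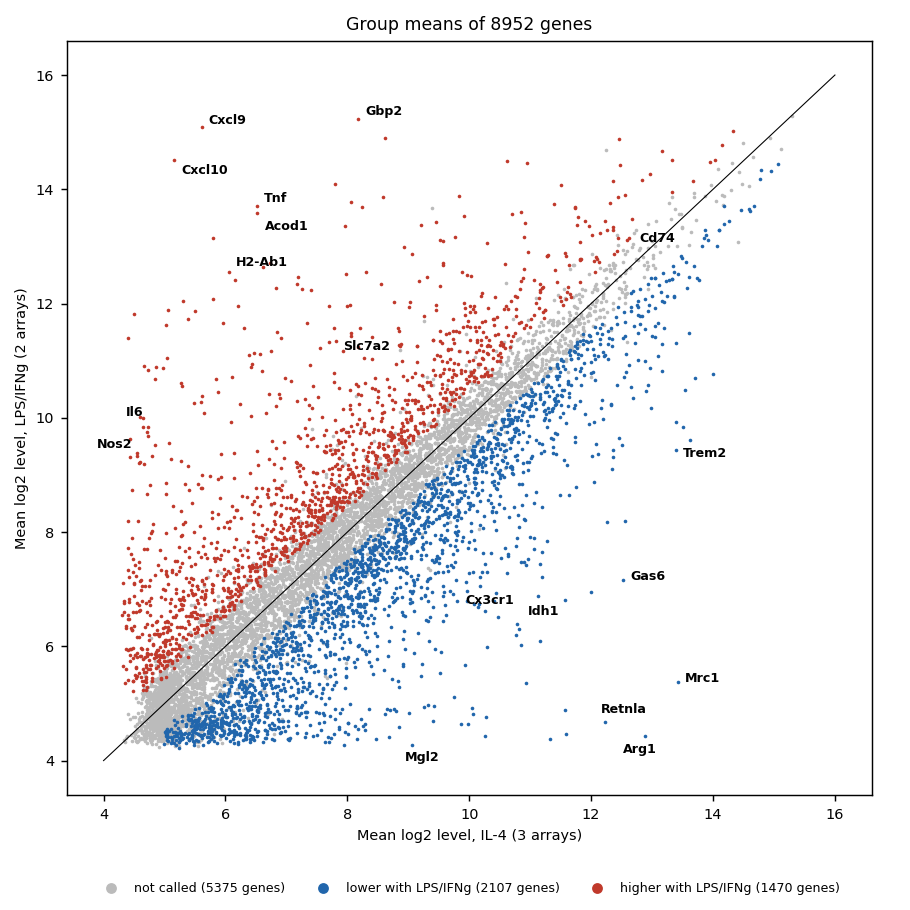
Mean log2 level of each of 8952 genes with IL-4 (horizontal axis, 3 arrays) and with LPS/IFNg (vertical axis, 2 arrays), with the line of equal level. Red points are the 1470 genes called higher with LPS/IFNg, blue points the 2107 called lower and grey points the genes not called. Cxcl9, Cxcl10 and Tnf lie far above the line, Arg1, Retnla and Mrc1 far below it, and Cd74 near it.

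Untreated cells resembled the IL-4 cells for most of the called genes. The untreated mean lay nearer to the IL-4 mean than to the LPS/IFNg mean for 1381 of the 1470 higher genes (93.9%) and for 1900 of the 2107 lower genes (90.2%). Among genes that differed by at least 4-fold, it was nearer to the IL-4 mean for 321 of 324 higher and 343 of 366 lower genes. The 23 exceptions among the latter, at levels in untreated cells closer to those with LPS/IFNg, include Arg1, Retnla, Mgl2, Ccl24, Rnase2a, Dusp4 and Socs2, together with the transcription factor gene Egr2 and the receptor gene Flt1, these last chosen after their values were seen. The 3 exceptions among higher genes, also chosen after their values were seen, were Gpr84, Notch1 and Ripor2. This is a count of levels with no test, and the untreated arrays all lay on slide 2.

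Promoters of genes that moved far apart are shown with the DNA elements that the transcription factors of these pathways are known to bind. Among the 7338 tested genes with a promoter in the RefSeq table (GRCm38.p6, 250 bases before to 50 after the first listed start), the core of the interferon-stimulated response element, GAAANNGAA on either strand, was present in 21.9% of the 247 promoters of genes at least 4-fold higher with LPS/IFNg, 7.51% of the 293 at least 4-fold lower and 7.3% of all. The kB core, GGANTTTCC, was present in 5.26%, 0.341% and 1.42% of these groups. The GAS element of STAT factors, TTCNNNGAA, was present in 12.1%, 6.48% and 6.96%. The STAT6-type element, which has the same ends and a spacer that is longer by a base, was present in 8.91%, 6.14% and 5.4%. Over all called genes the contrasts were smaller. The response element core was present in 11.4% of the 1184 promoters of genes called higher and 6.12% of the 1715 of genes called lower. In the same order the kB core was present in 2.2% and 0.933%, the GAS element in 8.28% and 6.71% and the STAT6-type element in 6.08% and 5.19%. These shares are descriptions with no test. A match is not a bound site, and no match says only that these letters are not in this window. The 250 bases before the start of 6 genes follow in the direction of transcription, in lower case, with the matches to the elements in capitals. Cxcl10, a chemokine for T cells, Gbp2, a guanylate-binding protein, Acod1, the itaconate-making enzyme, and Irf1, an interferon regulatory factor, were higher with LPS/IFNg, and Retnla, a resistin-like secreted protein, and Mgl2, a galactose-binding lectin, were higher with IL-4.
Cxcl10 (chr5:92348890-92349139, - strand): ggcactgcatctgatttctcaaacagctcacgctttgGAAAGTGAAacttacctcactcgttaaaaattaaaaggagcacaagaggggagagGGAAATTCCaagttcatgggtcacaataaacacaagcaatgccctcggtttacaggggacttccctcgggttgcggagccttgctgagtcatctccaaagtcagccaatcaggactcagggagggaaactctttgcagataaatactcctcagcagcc
Gbp2 (chr3:142620413-142620662, + strand): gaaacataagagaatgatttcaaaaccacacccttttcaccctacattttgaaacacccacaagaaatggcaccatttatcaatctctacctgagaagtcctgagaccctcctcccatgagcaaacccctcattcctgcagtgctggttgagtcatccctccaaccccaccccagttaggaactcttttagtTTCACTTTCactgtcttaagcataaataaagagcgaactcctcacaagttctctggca
Acod1 (chr14:103046762-103047011, + strand): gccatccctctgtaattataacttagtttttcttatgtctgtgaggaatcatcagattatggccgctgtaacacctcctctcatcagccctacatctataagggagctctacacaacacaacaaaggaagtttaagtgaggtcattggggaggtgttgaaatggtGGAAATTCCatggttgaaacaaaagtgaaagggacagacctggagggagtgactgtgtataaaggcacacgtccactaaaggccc
Irf1 (chr11:53769764-53770013, + strand): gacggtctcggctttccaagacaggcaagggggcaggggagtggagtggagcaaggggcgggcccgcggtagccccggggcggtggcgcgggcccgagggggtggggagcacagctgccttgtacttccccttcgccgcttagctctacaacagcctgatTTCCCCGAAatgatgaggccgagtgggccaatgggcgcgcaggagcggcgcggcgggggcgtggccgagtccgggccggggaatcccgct
Retnla (chr16:48842359-48842608, + strand): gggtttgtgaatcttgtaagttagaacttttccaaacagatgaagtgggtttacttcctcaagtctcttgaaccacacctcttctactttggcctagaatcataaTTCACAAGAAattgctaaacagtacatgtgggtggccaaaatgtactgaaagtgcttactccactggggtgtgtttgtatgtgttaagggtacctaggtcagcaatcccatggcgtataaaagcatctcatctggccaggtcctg
Mgl2 (chr11:70130107-70130356, + strand): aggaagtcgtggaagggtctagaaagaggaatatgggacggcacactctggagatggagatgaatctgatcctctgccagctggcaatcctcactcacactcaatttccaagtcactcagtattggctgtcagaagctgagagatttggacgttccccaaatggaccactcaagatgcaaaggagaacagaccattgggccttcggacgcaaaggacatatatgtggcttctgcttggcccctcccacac
The capitals mark the response element core and then, on the opposite strand, the kB core in Cxcl10, whose first bases lie 213 and 158 bases before the start. They mark the response element core on the opposite strand in Gbp2 (58 bases before the start), the kB core on the opposite strand in Acod1 (85 bases), the GAS element in Irf1 (90 bases) and the STAT6-type element in Retnla (145 bases). None of the 4 elements was found before the start of Mgl2. Among promoters examined but not printed, that of Cxcl9, which was higher with LPS/IFNg, held the response element core (175 bases before the start). That of Chil3, which was higher with IL-4, held no STAT6-type element. It held the GAS element (172 bases) and, on the opposite strand, the response element core (58 bases).

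Chemokines that attract T cells and cytokines of the acute inflammatory response were among the genes furthest above their IL-4 levels. Cxcl9, a ligand of CXCR3, was at 15.08 on both LPS/IFNg arrays and at 6.52, 5.79 and 4.52 on the IL-4 arrays, a difference of 9.47 ± 0.51 (adjusted p = 5.12e-07). The LPS/IFNg values are equal because the probe had the same rank on both arrays. Cxcl10, whose promoter is shown above, was at 14.46 and 14.57 with LPS/IFNg and at 5.80, 5.17 and 4.50 with IL-4 (9.36 ± 0.57, adjusted p = 1.2e-06). For each chemokine the lowest LPS/IFNg array lay over 8 log2 units above the highest IL-4 array. Tnf was at 13.41 and 14.00 with LPS/IFNg and at 6.37, 7.05 and 6.11 with IL-4 (7.20 ± 0.31, adjusted p = 1.15e-07). Untreated cells had Tnf at 8.10, 8.19 and 7.51, above every IL-4 array. Il6, which drives the acute-phase response, was detected on no IL-4 array and was at least 27.4-fold higher with LPS/IFNg (9.79 and 9.88 against 4.76, 4.72 and 4.70; adjusted p = 1.58e-07), and Il27, a cytokine subunit that acts on T cells, was at least 30.9-fold higher (adjusted p = 1.07e-07).

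Of 16 tested proinflammatory cytokines, of 21 on the array, 14 (87.5%, beside 16.4% of all genes) were higher with LPS/IFNg, none was lower and 2 were not called. However, 7 of the 16, Il6 and Il27 among them, would not have passed the detection limit without the LPS/IFNg arrays, and of the other 9 tested members 7 were higher. The 16 had a median difference of 2.47 (2.52 with slide as a block, 2.19 on slide 1 and 2.99 on slide 2). Il1b, the secreted form of interleukin 1, was high in all groups: it stood at 14.64 and 14.28 with LPS/IFNg, at 12.27, 10.06 and 10.54 with IL-4 and at 11.20 to 12.77 in untreated cells (3.50 ± 0.80, adjusted p = 0.00546). Without IL-4 replicate 1 the difference of Il1b was 4.16. Il1a differed by 5.84 ± 0.53 (adjusted p = 1.5e-05; 5.23 and 6.44 without LPS/IFNg replicates 1 and 3), and Il1rn, the secreted antagonist of the same receptor, by 6.03 ± 0.77 (adjusted p = 0.000155; 6.69 without IL-4 replicate 1), so agonists and antagonist of the IL-1 receptor were higher together. The subunit gene Il12b was not analysed here.

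Of 10 tested CXC chemokines 5 were higher and 5 not called (50% called, beside 40.0% of all genes), and 1 was lower without IL-4 replicate 1 or 2 or untreated replicate 2. Cxcl2, a neutrophil attractant, was detected on no IL-4 array and was at least 23.7-fold higher (adjusted p = 8.92e-05), and Cxcl13, which attracts B cells, differed by 3.64 ± 0.63 (adjusted p = 0.00112; 4.25 without IL-4 replicate 1). Of 10 tested CC chemokines 4 were higher and 2 lower (60% called), and 7 were higher without IL-4 replicate 1. Ccl3 and Ccl4, which attract monocytes and T cells, differed by 4.04 ± 0.56 and 2.43 ± 0.50 (adjusted p = 0.000251 and 0.00329), from IL-4 levels that were already high, 12.05 to 12.82 for Ccl4. Ccl5, which attracts T cells, was at 14.36 and 14.64 with LPS/IFNg and at 13.21, 8.33 and 10.29 with IL-4 (3.89 ± 1.10, adjusted p = 0.0172), and was not called without LPS/IFNg replicate 1 or replicate 3 (adjusted p = 0.0685 and 0.0911). Its difference was 5.19 without IL-4 replicate 1 and 2.75 without replicate 2. Ccl12, a monocyte attractant, had 13.38 and 13.95 against 12.58, 7.12 and 8.47 and was not called (adjusted p = 0.0644), but passed without IL-4 replicate 1 (0.00856). In the opposite direction, Ccl24, an eosinophil attractant, was at 4.45 and 5.49 with LPS/IFNg and at 10.43, 7.61 and 9.91 with IL-4 (-4.34 ± 0.69, adjusted p = 0.000617; -5.20 without IL-4 replicate 2), and Ccl6 differed by -1.87 ± 0.38 (adjusted p = 0.00298). In untreated cells Ccl24 was at 4.86 to 5.97, while Ccl6 was at 7.80 to 8.91, near its IL-4 level.

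**Figure D2:**
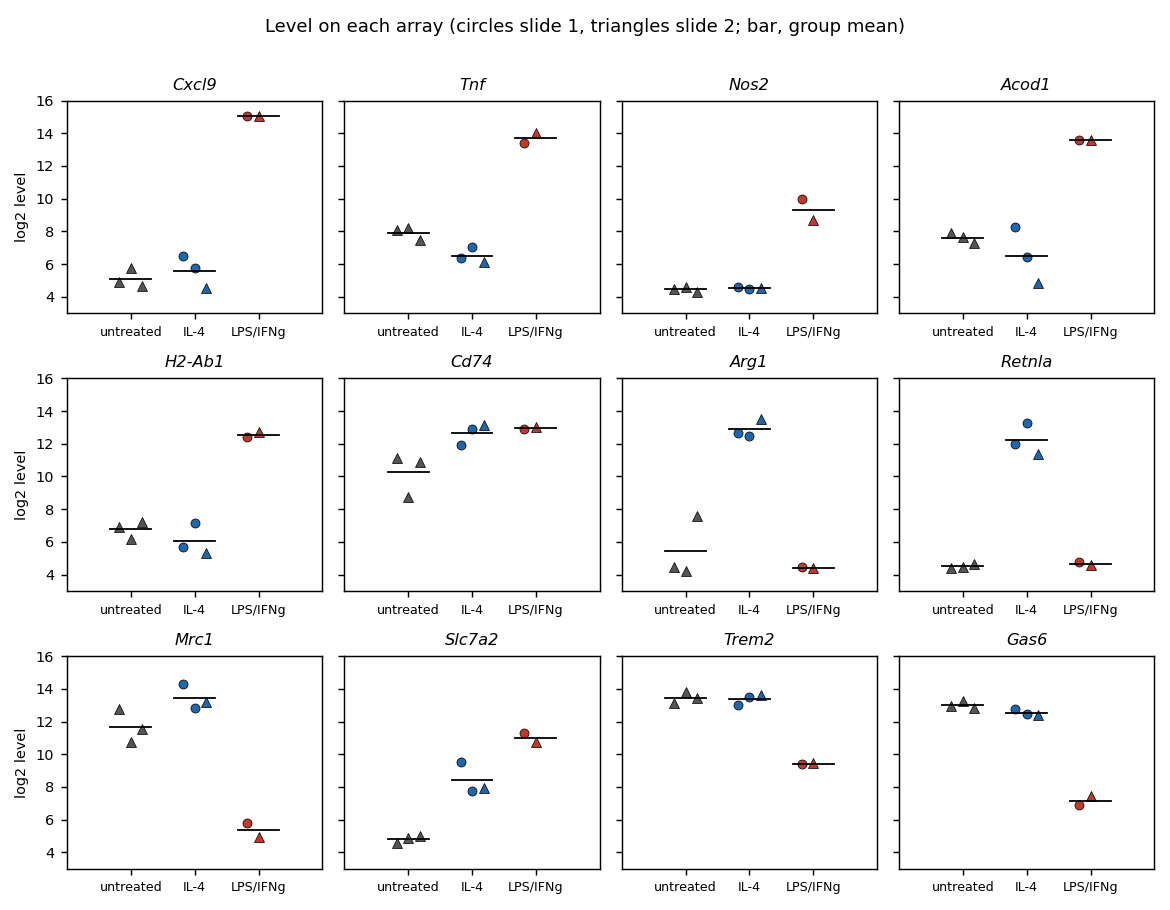
Log2 level of 12 genes on each array of untreated, IL-4 and LPS/IFNg cells. Circles are arrays of slide 1, triangles arrays of slide 2 and bars group means. Cxcl9, Tnf, Nos2, Acod1 and H2-Ab1 are high only on the LPS/IFNg arrays among those drawn, Arg1 and Retnla are highest on the IL-4 arrays, Trem2 and Gas6 are low on the LPS/IFNg arrays, and Cd74 is at 11.95 to 13.12 in both stimulated groups.

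The enzymes that make nitric oxide and itaconate, antimicrobial products of activated macrophages, were higher with LPS/IFNg. Nos2, the inducible nitric oxide synthase, was at 9.99 and 8.69 with LPS/IFNg and was detected on no IL-4 array (4.62, 4.46 and 4.55), so it was at least 19.4-fold higher (adjusted p = 1.44e-06; at least 12.3-fold and 30.6-fold without LPS/IFNg replicates 1 and 3). Acod1, which makes itaconate from cis-aconitate and carries the kB core shown above, was at 13.59 and 13.57 with LPS/IFNg and at 8.24, 6.46 and 4.88 with IL-4 (7.05 ± 0.77, adjusted p = 5.36e-05; 7.91 and 6.23 without IL-4 replicates 1 and 3). The groups did not overlap for either gene, and the IL-4 arrays spread over more than 3 log2 units for Acod1. Of the 17 tested genes of the nitric oxide, itaconate and oxidant list 15 were higher and 2 not called. Thus 88.2% were called, beside 40.0% of all genes. The 17 had a median of 2.80 (2.91 with slide as a block, 2.75 on slide 1 and 3.00 on slide 2). Without the LPS/IFNg arrays 4 of them would not have passed the detection limit, and 11 of the other 13 were higher. Lcn2, an iron-siderophore binder, differed by 6.75 ± 0.62 (adjusted p = 1.65e-05), and by 6.15 to 7.47 with LPS/IFNg replicate 1 or 3 or IL-4 replicate 1 left out.

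Of the 13 tested genes of arginine and polyamine metabolism 3 were higher with LPS/IFNg, 2 lower and 8 not called, so that 38.5% were called beside 40.0% of all genes, and the 2 lower became 4 without LPS/IFNg replicate 1. Arg1, the cytosolic arginase that makes ornithine and urea, was at 4.47 and 4.38 with LPS/IFNg, detected on neither array, and at 12.66, 12.49 and 13.49 with IL-4, so it was at least 183-fold higher with IL-4 (adjusted p = 2.24e-05). In untreated cells it was at 4.44, 4.20 and 7.60. Ass1, which regenerates arginine from citrulline, differed by 4.57 ± 0.59 (adjusted p = 0.000171) towards LPS/IFNg. Slc7a2, a cationic amino acid transporter that is counted among the IL-4 genes of macrophages, was at 11.31 and 10.73 with LPS/IFNg and at 9.52, 7.74 and 7.93 with IL-4 (2.62 ± 0.44, adjusted p = 0.000849), and all 5 of these values exceeded the 4.58 to 4.98 of untreated cells. Srm, spermidine synthase, was lower with LPS/IFNg (-1.19 ± 0.17, adjusted p = 0.000324).

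Genes induced by interferons were mostly higher with LPS/IFNg. The 11 tested guanylate-binding proteins and immunity-related GTPases, which attack the membranes around intracellular pathogens, were all called higher, beside 16.4% of all genes. Another 6 on the array did not pass the detection limit. Without the LPS/IFNg arrays 4 of the 11, Gbp2b and Gbp5 among them, would not have passed it either, and the other 7 were higher. The 11 had a median of 4.05 (4.05 with slide as a block, 3.70 on slide 1 and 4.53 on slide 2). Gbp2, with the response element core shown above, was at 15.14 and 15.33 with LPS/IFNg and at 10.65, 6.95 and 6.94 with IL-4 (7.06 ± 0.99, adjusted p = 0.000285), a difference that was 8.29 without IL-4 replicate 1 and 6.44 without replicate 2 or 3. Gbp2b was detected on no IL-4 array and was at least 80.4-fold higher (adjusted p = 3.95e-08). Gbp5 and Gbp3 differed by 6.03 ± 0.45 and 5.98 ± 1.11 (adjusted p = 4.39e-06 and 0.00163), and Gbp3 by 7.22 and 5.32 without IL-4 replicates 1 and 2. IL-4 replicate 1 was the highest IL-4 array for Gbp2, Gbp3 and Gbp5, and the LPS/IFNg arrays lay above it for each.

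Of the 38 tested antiviral interferon-stimulated genes 33 were higher with LPS/IFNg, none was lower and 5 were not called. Thus 86.8% were called, beside 40.0% of all genes. The 38 had a median of 2.04 (2.05 with slide as a block, 1.83 on slide 1 and 2.49 on slide 2). Their mean level was 10.73 and 10.70 on the LPS/IFNg arrays, 9.56 on IL-4 replicate 1 and 7.15 and 7.74 on its fellow IL-4 arrays, while the untreated arrays had 7.51 to 8.20. The count of higher genes depended on single arrays: it was 37 without IL-4 replicate 1, 21 without IL-4 replicate 3, 19 without LPS/IFNg replicate 1 and 18 without LPS/IFNg replicate 3, and 3 on slide 1 alone. Rsad2, the antiviral enzyme viperin, was at 13.98 and 13.76 with LPS/IFNg and at 10.88, 6.95 and 7.92 with IL-4 (5.29 ± 0.85, adjusted p = 0.00065). Oasl1, an inhibitor of Irf7 translation, was at 11.92 and 11.98 against 8.57, 4.75 and 5.30 (5.74 ± 0.91, adjusted p = 0.000598). Mx1, a dynamin-like antiviral GTPase, differed by 4.43 ± 0.57 (adjusted p = 0.000157). In each of these genes IL-4 replicate 1 lay between the LPS/IFNg arrays and the other IL-4 arrays. Without it the differences of Rsad2, Oasl1 and Mx1 were 6.44, 6.92 and 5.09, and without IL-4 replicate 2 they were 4.47, 5.01 and 3.78.

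**Figure D3:**
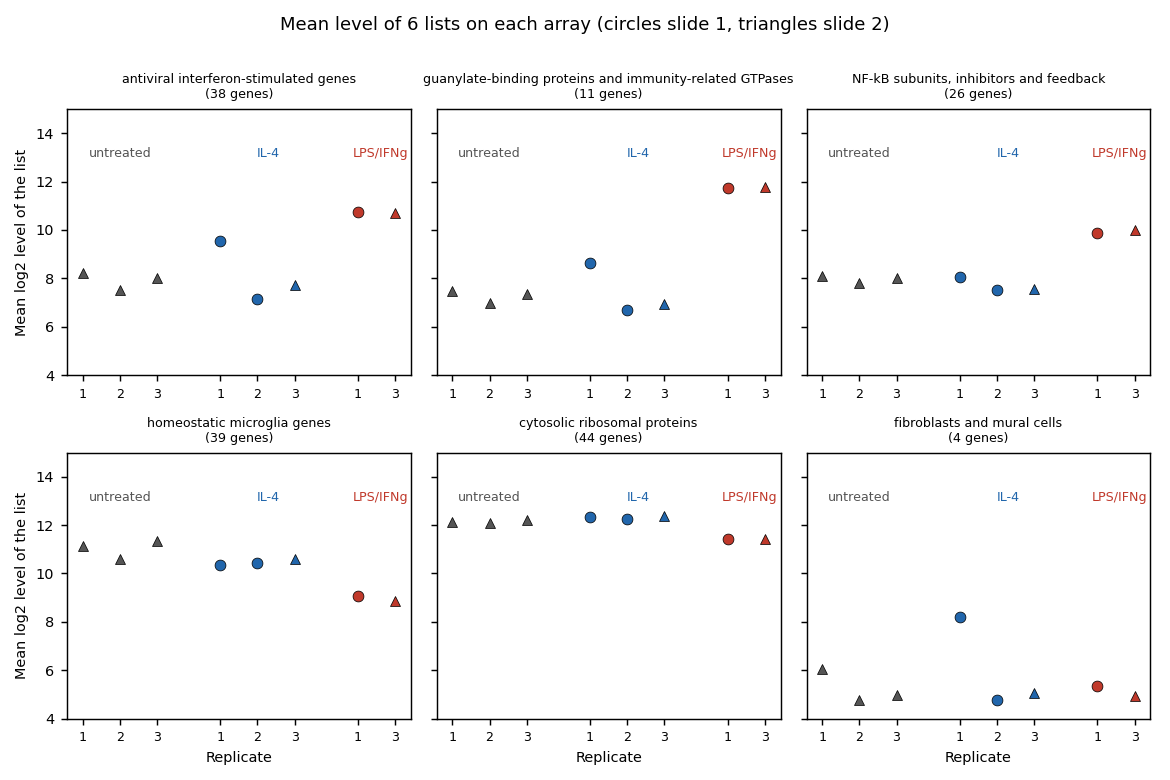
Mean log2 level of the tested genes of 6 lists on each array of untreated, IL-4 and LPS/IFNg cells, with replicate numbers on the horizontal axis, circles for slide 1 and triangles for slide 2. The antiviral genes are at 9.56 on IL-4 replicate 1 and at 7.15 and 7.74 on the other IL-4 arrays, and the fibroblast and mural markers are at 8.19 on IL-4 replicate 1 and at 6.04 or less on the other arrays drawn.

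Among the transcription factors and feedback inhibitors of these pathways, Irf1, whose promoter holds the GAS element shown above, was at 14.03 and 14.13 with LPS/IFNg and at 12.32, 11.32 and 10.86 with IL-4 (2.58 ± 0.38, adjusted p = 0.000398). Socs3, an inhibitor of cytokine receptor signalling, differed by 5.43 ± 1.20 (adjusted p = 0.00448; 6.13 without IL-4 replicate 1). Irf7, the factor that amplifies type I interferon production, was at 12.62 and 12.80 against 12.14, 7.49 and 9.06 (3.14 ± 1.03, adjusted p = 0.0328) and lost its call without LPS/IFNg replicate 1 or 3 and without IL-4 replicate 2 or 3 (adjusted p = 0.111, 0.135, 0.0855 and 0.0869). Its difference was 4.43 without IL-4 replicate 1 and 2.11 without replicate 2. Stat6, through which IL-4 acts, had 7.12 and 7.04 with LPS/IFNg and 6.9995, 7.17 and 7.15 with IL-4, with overlapping groups and an adjusted p of 0.91. Of the 21 tested STAT, IRF and SOCS genes 8 were higher, 1 was lower and 12 were not called (42.9% called, beside 40.0% of all genes), with a median of 0.38. None was lower without LPS/IFNg replicate 1 or 3, and 5 were higher without replicate 3. The lower member was Socs2, at 9.18, 6.23 and 7.11 with IL-4 and detected on neither LPS/IFNg array, at least 4.41-fold higher with IL-4 (adjusted p = 0.0198; 0.078 and 0.098 without LPS/IFNg replicates 1 and 3). Without IL-4 replicates 1 and 2 that bound was 2.47-fold and 6.86-fold.

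Of 26 tested NF-kB genes, which hold subunits, inhibitors and feedback regulators, 21 were higher with LPS/IFNg and 1 lower. Of the NF-kB list 84.6% were called, beside 40.0% of all genes. The median was 2.26 (2.21 with slide as a block, 2.06 on slide 1 and 2.44 on slide 2). Traf1, an adaptor of TNF receptors, was at 11.80 and 11.67 with LPS/IFNg and at 7.01, 4.34 and 4.82 with IL-4 (6.35 ± 0.60, adjusted p = 1.97e-05; 7.15 without IL-4 replicate 1). Nfkbiz, a nuclear regulator of secondary NF-kB targets, differed by 5.18 ± 0.44 (adjusted p = 1.07e-05). The inhibitors were higher as well: Tnfaip3, a ubiquitin-editing enzyme that ends NF-kB signalling, differed by 3.54 ± 0.23 (adjusted p = 2.02e-06) and Irak3, a brake on toll-like receptor signalling, by 3.62 ± 0.19 (adjusted p = 4.78e-07). The lower member was Irak1, a receptor-proximal kinase (-0.73 ± 0.20, adjusted p = 0.0133), which was not called without LPS/IFNg replicate 1 (0.105).

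Receptors for the stimuli moved in both directions. Tlr4, the LPS receptor, was at 8.28 and 8.26 with LPS/IFNg and at 10.23, 9.55 and 9.50 with IL-4 (-1.49 ± 0.22, adjusted p = 0.000376). Ifngr1, a chain of the IFNg receptor, was at 8.60 and 8.67 against 9.77, 10.72 and 11.04 (-1.88 ± 0.30, adjusted p = 0.000697). Each was lower on both LPS/IFNg arrays than on any IL-4 array, so receptor chains for both LPS and IFNg were lower than with IL-4. Whether either stimulus changed their levels was not tested here. Cd14 was higher with LPS/IFNg than with IL-4 (1.96 ± 0.38, adjusted p = 0.00232), at 14.22 and 13.17, while untreated cells had 13.62 to 14.01. Il4ra, the IL-4 receptor chain, was at 6.18 and 6.86 with LPS/IFNg and at 6.19, 4.47 and 4.84 with IL-4, with overlapping groups. Its difference of 1.35 ± 0.48 had an adjusted p of 0.0452 and was not called with slide as a block (0.0559), without IL-4 replicate 2 or 3 (0.134 and 0.12) or without LPS/IFNg replicate 1 or 3 (0.0675 and 0.257). Tgfbr1, a TGFb receptor, was lower (-1.26 ± 0.23, adjusted p = 0.00132). Of the 17 tested receptors of the stimuli and their partners 8 were higher, 4 lower and 5 not called (70.6% called, beside 40.0% of all genes).

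The sensors of microbial products also split. Of 25 tested pattern recognition receptors and inflammasome genes 11 were higher, 4 lower and 10 not called (60% called, beside 40.0% of all genes), with a median of 0.51. Clec4e, a receptor for mycobacterial glycolipid, differed by 5.88 ± 0.44 (adjusted p = 4.77e-06; 5.30 and 6.47 without LPS/IFNg replicates 1 and 3), Nod1, a cytosolic sensor of bacterial cell walls, by 3.38 ± 0.29 (adjusted p = 1.07e-05) and Casp4, which senses cytosolic LPS, by 3.01 ± 0.42 (adjusted p = 0.000281). Nlrp3, the inflammasome sensor, was detected on no IL-4 array and was at least 4.51-fold higher (adjusted p = 0.000113). Tlr8, an endosomal RNA sensor, and Mavs, the mitochondrial adaptor of cytosolic RNA sensors, were lower, by differences of -1.92 ± 0.32 and -0.75 ± 0.15 (adjusted p = 0.000852 and 0.00262).

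Genes of antigen presentation were mostly higher with LPS/IFNg, with 9 of 12 tested members of class II and 11 of 16 of class I called higher, beside 16.4% of all genes. The class II chains H2-Ab1, H2-Eb1 and H2-Aa, which present peptides to CD4+ T cells, differed by 6.51 ± 0.48, 6.01 ± 0.38 and 5.05 ± 0.40 (adjusted p = 4.48e-06, 1.56e-06 and 6.89e-06), the last by 5.72 and 4.38 without LPS/IFNg replicates 1 and 3. H2-Ab1 was at 12.42 and 12.70 with LPS/IFNg, at 5.72, 7.13 and 5.30 with IL-4 and at 6.19 to 7.21 in untreated cells. Cd74, the invariant chain that accompanies class II molecules, was at 12.93 and 13.05 with LPS/IFNg and at 11.95, 12.93 and 13.12 with IL-4, with overlapping groups (0.32 ± 0.62, adjusted p = 0.712, 95% interval -1.05 to 1.69). In untreated cells Cd74 was lower than in every array of either stimulus, at 11.11, 8.76 and 10.86. Ifi30, a lysosomal thiol reductase of the same pathway, was lower with LPS/IFNg (-1.44 ± 0.32, adjusted p = 0.00453). Of 12 tested class II genes 9 were higher, 1 lower and 2 not called (median 1.40; 1.40 with slide as a block, 1.09 on slide 1 and 1.41 on slide 2), and 5 were higher without LPS/IFNg replicate 3, while 2 were lower without untreated replicate 2 or 3.

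Of 16 tested class I and peptide transport genes 11 were higher, none lower and 5 not called, with a median of 1.73 (1.78 with slide as a block, 1.36 on slide 1 and 1.94 on slide 2), and 7 were higher without LPS/IFNg replicate 1. Nlrc5, the transactivator of class I genes, differed by 3.79 ± 0.52 (adjusted p = 0.000236; 4.48 without IL-4 replicate 1) and the peptide transporter chains Tap1 and Tap2 by 3.42 ± 0.52 and 2.67 ± 0.24 (adjusted p = 0.000452 and 1.66e-05), Tap1 by 4.09 without IL-4 replicate 1. The catalytic subunits of the immunoproteasome Psmb9 and Psmb8 differed by 1.94 ± 0.35 and 1.71 ± 0.19 (adjusted p = 0.00136 and 6.28e-05). Of the 11 tested genes of the proteasome list 9 were higher and 2 not called (81.8% called, beside 40.0% of all genes). Of 15 tested costimulatory and checkpoint genes 7 were higher and 5 lower, the latter falling to 3 without IL-4 replicate 3, 2 without LPS/IFNg replicate 1 and 1 without LPS/IFNg replicate 3. Of the costimulatory and checkpoint list 80% were called, beside 40.0% of all genes. Cd40, a receptor for T cell help, was at 13.67 and 13.88 against 9.94, 7.21 and 7.02 (5.72 ± 0.78, adjusted p = 0.000239; 6.66 without IL-4 replicate 1), and Cd86, a ligand of CD28, differed by 2.75 ± 0.53 (adjusted p = 0.00209). Of the ligands of the checkpoint receptor PD-1, Cd274 was higher with LPS/IFNg (2.25 ± 0.28, adjusted p = 0.000132). Pdcd1lg2 was detected on neither LPS/IFNg array and was at least 3.22-fold higher with IL-4 (adjusted p = 0.0113). That bound was 1.66-fold and 5.15-fold without IL-4 replicates 1 and 2, and Pdcd1lg2 was not called without LPS/IFNg replicate 1 or 3. It would not have passed the detection limit without the IL-4 arrays, so its higher level there follows from the limit.

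Most tested genes known from IL-4 activated macrophages were higher with IL-4. Of 40 tested members 24 were lower with LPS/IFNg, 3 higher and 13 not called (67.5% called, beside 40.0% of all genes). The 40 had a median of -1.89 (-1.89 with slide as a block, -1.95 on slide 1, -1.72 on slide 2 and -1.47 without IL-4 replicate 1), beside -0.10 over all genes. Without the IL-4 arrays 13 of them, such as Arg1, Retnla and Mgl2, would not have passed the detection limit, and of the other 27 tested members 15 were lower and 3 higher. Retnla, with the STAT6-type element shown above, was at 4.75 and 4.60 with LPS/IFNg, detected on neither array, and at 11.98, 13.29 and 11.40 with IL-4, at least 116-fold higher with IL-4 (adjusted p = 5.5e-07). Mrc1, the mannose receptor, was at 5.82 and 4.93 with LPS/IFNg and at 14.27, 12.81 and 13.20 with IL-4 (-8.05 ± 0.82, adjusted p = 3.3e-05). Retnla was at 4.38 to 4.64 in untreated cells, but Mrc1 was already at 10.75 to 12.78 there, so the LPS/IFNg arrays were the ones that stood apart for Mrc1.

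Mgl2 and Rnase2a, an eosinophil-type ribonuclease, were detected on neither LPS/IFNg array and lay at 4.30 to 4.48 and 4.28 to 4.42 in untreated cells. With IL-4 they were at least 12.9-fold and 29.6-fold higher than with LPS/IFNg (adjusted p = 2.69e-06 and 5.89e-06), and Rnase2a at least 44.8-fold without IL-4 replicate 1. Dusp4, which dephosphorylates MAP kinases, was at least 29.9-fold higher with IL-4 (10.48, 10.13 and 10.20; adjusted p = 1.37e-06), against 6.17 to 7.21 in untreated cells. Chil3, a chitinase-like secreted protein, was at 7.52, 5.50 and 6.04 with IL-4 and at least 1.98-fold higher (adjusted p = 0.00817), a smaller bound than those of Arg1 and Retnla. Pparg, a nuclear receptor of fatty acids, was at 8.49, 10.30 and 9.41 with IL-4, detected on neither LPS/IFNg array and at least 16.3-fold higher (adjusted p = 0.000319). Fn1, fibronectin, was at 9.65, 9.39 and 11.16 with IL-4 and at least 26-fold higher (adjusted p = 0.0296), but 1 untreated array was at 4.77 and the others at 10.30 and 12.33, and it was not called without IL-4 replicate 3 or LPS/IFNg replicate 1 or 3 (0.084, 0.105 and 0.125). The 3 members that were higher with LPS/IFNg were Il1rn, Slc7a2 and Ch25h, the cholesterol 25-hydroxylase (13.36 and 13.37 against 9.85, 6.61 and 7.45; 5.40 ± 0.85, adjusted p = 0.000574; 6.33 and 4.72 without IL-4 replicates 1 and 2).

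**Figure D4:**
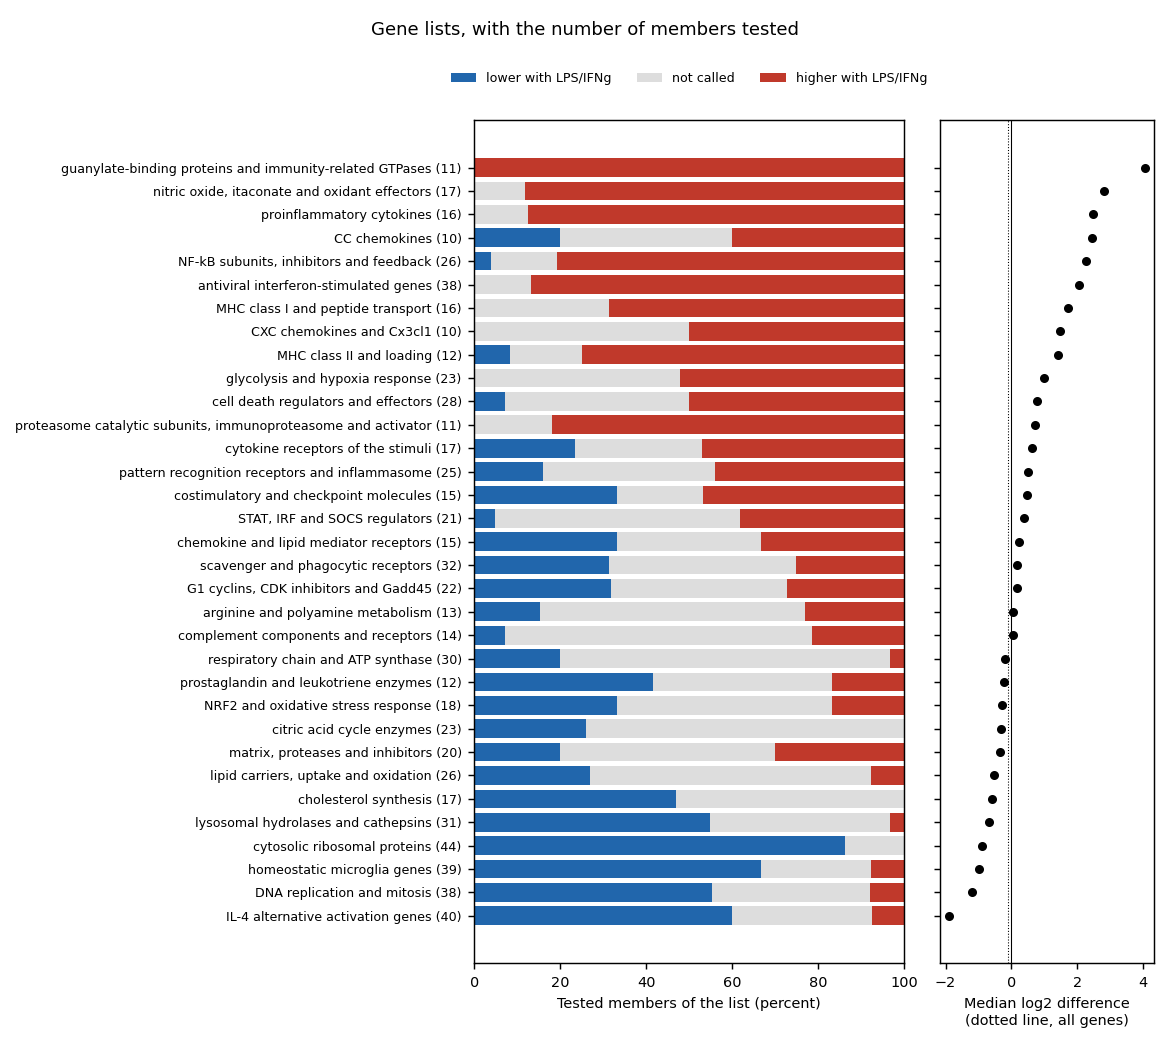
Gene lists ordered by their median difference, with the number of tested members in brackets. The left panel gives the percent of tested members called lower with LPS/IFNg (blue), not called (grey) and called higher (red), and the right panel the median log2 difference, LPS/IFNg minus IL-4, with the median of all genes, -0.10, as a dotted line. Guanylate-binding proteins have the highest median, 4.05, and the IL-4 genes the lowest, -1.89.

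The homeostatic genes of microglia, which mark the resting state in the brain, were mostly lower with LPS/IFNg. Of 39 tested members 26 were lower, 3 higher and 10 not called (74.4% called, beside 40.0% of all genes). Their median was -0.99 (-1.01 with slide as a block, -0.87 on slide 1 and -1.28 on slide 2). Slco2b1, an organic anion transporter, was at 4.57 and 4.37 with LPS/IFNg, detected on neither array, and at 10.80, 12.04 and 11.92 with IL-4, at least 74.5-fold higher with IL-4 (adjusted p = 2.08e-07). Gas6, a bridging ligand of TAM receptors for dying cells, was at 6.91 and 7.42 against 12.74, 12.47 and 12.38 (-5.36 ± 0.21, adjusted p = 8.86e-08). Trem2, a lipid-sensing receptor, was at 9.42 and 9.45 against 13.04, 13.50 and 13.63 (-3.95 ± 0.25, adjusted p = 1.68e-06), and its signalling adaptor Tyrobp differed by -1.09 ± 0.22 (adjusted p = 0.00282). For Slco2b1, Gas6 and Trem2 the untreated levels of 11.63 to 12.14, 12.81 to 13.23 and 13.16 to 13.78 lay near or above those with IL-4.

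Cx3cr1, the fractalkine receptor, was at 8.07 and 6.05 with LPS/IFNg and at 9.72, 10.23 and 10.59 with IL-4 (-3.12 ± 0.62, adjusted p = 0.00266; -4.13 and -2.11 without LPS/IFNg replicates 1 and 3). Its untreated level of 11.99 to 13.07 lay above all 5 arrays. Csf1r, on which microglia depend for survival, differed by -2.42 ± 0.27 (adjusted p = 6.95e-05) and the integrin chain Itgb5 by -3.44 ± 0.39 (adjusted p = 6.64e-05). Tmem119, a microglia-specific membrane protein, was detected on neither LPS/IFNg array and was at least 3.44-fold higher with IL-4 (adjusted p = 0.0163; 0.0519 and 0.105 without LPS/IFNg replicates 1 and 3). P2ry12, the purinergic receptor of resting microglia, was at 4.87 and 4.68 with LPS/IFNg, detected on neither array, and at 6.99, 5.64 and 5.26 with IL-4, and was not called (adjusted p = 0.118). The higher members were Gpr84, a receptor for medium-chain fatty acids (12.46 and 12.003 against 7.32, 7.16 and 7.74; 4.82 ± 0.72, adjusted p = 0.000427), Aif1, the microglial marker IBA1 (1.71 ± 0.26, adjusted p = 0.000464), and Mertk, a TAM receptor (1.57 ± 0.29, adjusted p = 0.00155). The TAM receptor and its ligand Gas6 thus differed in opposite directions.

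Receptors for lipid mediators, chemokines and particles showed a similar split, with few members of the same direction. Of the chemokine and lipid mediator receptors 66.7% were called, beside 40.0% of all genes. Of 15 tested chemokine and lipid mediator receptors 5 were higher and 5 lower, and 3 were lower without LPS/IFNg replicate 3. Hcar2, the niacin receptor, and Fpr2, a formyl peptide receptor, differed by 6.36 ± 0.81 and 6.29 ± 0.98 (adjusted p = 0.000156 and 0.000536), Fpr2 by 7.26 without IL-4 replicate 1, while Cxcr4 and Gpr183, receptors for CXCL12 and an oxysterol, were detected on neither LPS/IFNg array and were at least 7.55-fold and 22.5-fold higher with IL-4 (adjusted p = 6.98e-07 and 1.27e-05), Gpr183 at least 34.3-fold without IL-4 replicate 1. Of 32 tested scavenger and phagocytic receptors 8 were higher and 10 lower (56.2% called, beside 40.0% of all genes), with a median of 0.17 that was -0.01 with median scaling. Without the LPS/IFNg arrays 2 of them, Timd4 among these, would not have passed the detection limit, and 3 not without the IL-4 arrays. Of the other 27 tested members 6 were higher and 8 lower. Marco, which binds bacteria, differed by 4.76 ± 0.54 (adjusted p = 6.84e-05) and Timd4, a phosphatidylserine receptor, was at least 30.5-fold higher (adjusted p = 1.51e-08), whereas Clec7a, the beta-glucan receptor, and Cd300a, an inhibitory lipid receptor, differed by -2.29 ± 0.41 and -2.33 ± 0.43 (adjusted p = 0.00128 and 0.00159).

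Lysosomal enzymes were lower with LPS/IFNg. Of 31 tested hydrolases, cathepsins and lysosomal membrane genes 17 were lower, 1 was higher and 13 were not called (58.1% called, beside 40.0% of all genes). Their median was -0.69 (-0.72 with slide as a block, -0.81 on slide 1 and -0.67 on slide 2). Hexa, a chain of beta-hexosaminidase, was at 9.60 and 9.69 with LPS/IFNg and at 12.06, 12.78 and 12.54 with IL-4 (-2.82 ± 0.21, adjusted p = 3.9e-06). Lipa, the lysosomal acid lipase, was at 10.21 and 10.15 against 12.16, 13.48 and 13.30 (-2.80 ± 0.38, adjusted p = 0.000223), and Man2b1, an alpha-mannosidase, differed by -2.08 ± 0.21 (adjusted p = 3.68e-05). The untreated levels of the 3 genes, from 12.49 upwards, were like those with IL-4 and above both LPS/IFNg arrays. The member called higher was Npc2, a cholesterol carrier (0.66 ± 0.18, adjusted p = 0.0129), which was not called without LPS/IFNg replicate 3 (0.12), and 2 members were higher without IL-4 replicate 1.

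Among genes of energy metabolism, higher members were found in glycolysis and the hypoxia response, where 12 of 23 tested (52.2%, beside 16.4% of all genes) were higher with LPS/IFNg, none was lower and 11 were not called, with a median of 0.99 (1.02 with slide as a block, 1.34 on slide 1 and 0.66 on slide 2), and 7 were higher without LPS/IFNg replicate 1, while 1 was lower without TGFb replicate 1 or untreated replicate 2. Hif1a, the oxygen-regulated transcription factor subunit, was at 9.78 and 9.59 with LPS/IFNg and at 7.66, 6.59 and 7.35 with IL-4 (2.49 ± 0.37, adjusted p = 0.00041). The glucose transporter Slc2a1 and the kinases Pfkp and Hk3 differed by 1.95 ± 0.31, 2.17 ± 0.22 and 1.94 ± 0.41 (adjusted p = 0.00061, 3.59e-05 and 0.00342). Of 23 tested citric acid cycle genes 6 (26.1%, beside 23.5% of all genes) were lower, none higher and 17 not called, with a median of -0.32, and 1 was higher without untreated replicate 2. The isocitrate dehydrogenase genes Idh1 and Idh2 were among the lower members. Idh1, the cytosolic enzyme, was at 6.69 and 7.05 with LPS/IFNg and at 11.02, 11.31 and 11.08 with IL-4 (-4.26 ± 0.26, adjusted p = 1.34e-06), and Idh2, a mitochondrial enzyme, was detected on neither LPS/IFNg array and was at least 7.43-fold higher with IL-4 (adjusted p = 1.8e-06). Untreated cells had Idh1 at 10.72 to 11.45 and Idh2 at 8.17 to 8.40, levels like those with IL-4. Of 30 tested respiratory chain and ATP synthase genes 6 were lower and 1 higher (23.3% called, beside 40.0% of all genes), but 1 to 3 were lower without IL-4 replicate 2 or 3 or LPS/IFNg replicate 1 or 3. None was higher without LPS/IFNg replicate 3, and 2 were higher without untreated replicate 1 or 2.

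Of 17 tested genes of cholesterol synthesis 8 were lower with LPS/IFNg, none was higher and 9 were not called (median -0.59; -0.61 with slide as a block, -0.53 on slide 1 and -1.05 on slide 2), and 5 were lower without LPS/IFNg replicate 3. Of the cholesterol synthesis list 47.1% were called, near the 40.0% of all genes. Sqle, squalene epoxidase, differed by -2.11 ± 0.42 and Fdps, farnesyl diphosphate synthase, by -1.58 ± 0.28 (adjusted p = 0.00248 and 0.00112), and Dhcr7, which makes cholesterol from its last precursor, was at least 3.69-fold higher with IL-4 (adjusted p = 0.000132). Ch25h, which consumes cholesterol, was higher with LPS/IFNg, as given above. Of 12 tested prostaglandin and leukotriene enzymes 2 were higher, 5 lower and 5 not called (58.3% called, beside 40.0% of all genes), with a median of -0.23. Ptgs2, the inducible cyclooxygenase, and Ptges, the prostaglandin E synthase, were detected on no IL-4 array and were at least 8.48-fold and 57.4-fold higher with LPS/IFNg (adjusted p = 1.13e-06 and 1.48e-06). Hpgd, which inactivates prostaglandins, was at 4.48 and 4.29 with LPS/IFNg, detected on neither array, and at 10.79, 11.86 and 11.31 with IL-4, at least 62-fold higher with IL-4 (adjusted p = 2.36e-07). Untreated cells had Hpgd at 11.81 to 12.68, so they and the IL-4 arrays were high and the LPS/IFNg arrays low. Alox5ap and Ltc4s, which act in leukotriene synthesis, were lower with LPS/IFNg: the first differed by -1.85 ± 0.39 (adjusted p = 0.00365), and the second was at least 3.5-fold higher with IL-4 (adjusted p = 0.000187).

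Genes of ribosomes and of cell division were lower with LPS/IFNg. Of 44 tested cytosolic ribosomal proteins 38 were lower, none higher and 6 not called (86.4% called, beside 40.0% of all genes). Their median was -0.89 (-0.91 with slide as a block, -0.82 on slide 1, -1.02 on slide 2 and -0.81 with median scaling), beside -0.10 over all genes. Their range was narrow, from -1.59 ± 0.20 for Rpl22 (adjusted p = 0.000157) to -0.04 ± 0.74 for Rpl24 (adjusted p = 0.974). Rpl24 was at 7.69 and 7.92 with LPS/IFNg and at 9.90, 6.80 and 6.81 with IL-4, and without IL-4 replicate 1 it was called higher (adjusted p = 0.00883). Rps19, a small-subunit protein, was at 12.54 and 12.28 with LPS/IFNg and at 13.50, 13.88 and 13.93 with IL-4 (-1.36 ± 0.17, adjusted p = 0.000134). Of 38 tested genes of DNA replication and mitosis 21 were lower, 3 higher and 14 not called, with a median of -1.21 (-1.25 with slide as a block, -0.93 on slide 1 and -1.40 on slide 2), and 1 was higher without LPS/IFNg replicate 3. Of the replication and mitosis list 63.2% were called, beside 40.0% of all genes. The 21 lower genes were all among the 33 members that passed the detection limit without the arrays of either group. Cenpa, the centromeric histone, was at 6.01 and 5.97 with LPS/IFNg and at 9.97, 10.38 and 10.51 with IL-4 (-4.29 ± 0.29, adjusted p = 2.09e-06). The replicative helicase subunit Mcm2 differed by -2.24 ± 0.30 (adjusted p = 0.00023), and Tk1, thymidine kinase, was detected on neither LPS/IFNg array and was at least 3.05-fold higher with IL-4 (adjusted p = 0.00421). Ccne1, the cyclin of the step into replication, was detected on no IL-4 array and was at least 3.26-fold higher with LPS/IFNg (adjusted p = 4.54e-05). It would not have passed the detection limit without the LPS/IFNg arrays, so its higher level there follows from the limit. Ccnd2, a D-type cyclin, differed by 4.67 ± 0.80 (adjusted p = 0.00099), and by 5.54 without IL-4 replicate 1. E2f1 and Rb1, a transcription factor and its repressor, differed by -1.10 ± 0.20 and -0.998 ± 0.21 (adjusted p = 0.0014 and 0.00362).

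Of 28 tested regulators and effectors of cell death 14 were higher with LPS/IFNg, 2 lower and 12 not called (57.1% called, beside 40.0% of all genes). Their median was 0.78 (0.79 with slide as a block, 0.69 on slide 1 and 0.53 on slide 2). Mlkl, which permeabilises the membrane in necroptosis, was at 11.26 and 11.08 with LPS/IFNg and at 8.41, 6.02 and 5.79 with IL-4 (4.43 ± 0.63, adjusted p = 0.000301), and the death receptor Fas differed by 4.50 ± 0.65 (adjusted p = 0.000327). Without IL-4 replicate 1 these differences were 5.26 and 5.31. Bcl2l11, the pro-apoptotic protein BIM, was lower (-3.43 ± 0.39, adjusted p = 6.95e-05), as was the caspase Casp6 (-1.57 ± 0.20, adjusted p = 0.000157). Death genes of both directions were thus found, with the extracellular receptor and the necroptosis effector higher and BIM lower. Of 20 tested genes of the matrix, proteases and their inhibitors 6 were higher and 4 lower, and 2 and 1 were lower without IL-4 replicate 3 and LPS/IFNg replicate 3. Of the matrix list 50% were called, beside 40.0% of all genes. Mmp13, a collagenase, was at 14.95 and 14.83 with LPS/IFNg and at 8.77, 9.38 and 7.73 with IL-4 (6.27 ± 0.43, adjusted p = 2.3e-06), and Timp2, an inhibitor of such proteases, was at 8.29 and 8.09 against 12.65, 12.44 and 12.59 (-4.37 ± 0.18, adjusted p = 1.06e-07). In the NRF2 and oxidative stress list, too, 50% were called, near the 40.0% of all genes. Of 18 tested genes of the NRF2 and oxidative stress response 3 were higher and 6 lower, the latter 3 without IL-4 replicate 2 or 3, LPS/IFNg replicate 1, untreated replicate 1 or any TGFb array, and the glutathione peroxidases Gpx1 and Gpx4 differed by -1.70 ± 0.31 and -1.51 ± 0.30 (adjusted p = 0.00159 and 0.00246).

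The genes with the largest differences outside these groups were mixed in function. Cd69, an early activation antigen of lymphocytes and macrophages, was at 13.14 and 13.16 with LPS/IFNg and at 7.03, 5.86 and 4.49 with IL-4 (7.36 ± 0.65, adjusted p = 1.25e-05; 7.98 and 6.70 without IL-4 replicates 1 and 3). Upp1, uridine phosphorylase, was detected on no IL-4 array and was at least 109-fold higher with LPS/IFNg (12.09 and 11.55; adjusted p = 3.7e-09), the largest bound among genes higher with LPS/IFNg. Serpina3f, a protease inhibitor, differed by 6.83 ± 0.46 (adjusted p = 2.08e-06; 7.46 without IL-4 replicate 1). On the IL-4 side, Rnase4 and Ang, neighbouring secreted ribonucleases, were at least 73.5-fold and 25.7-fold higher with IL-4 (adjusted p = 1.38e-05 and 0.000349), bounds that were 48.2-fold and 15.3-fold without IL-4 replicate 1, and 38.6-fold for Ang without replicate 2. The groups were far apart for Hfe, an iron regulator related to class I molecules (-5.57 ± 0.38, adjusted p = 2.23e-06). Sort1, a sorting receptor, and St6gal1, a sialyltransferase, differed by -5.06 ± 0.50 and -5.04 ± 0.49 (adjusted p = 2.6e-05 and 2.45e-05). Sort1 differed by -5.68 without IL-4 replicate 1, and St6gal1 by -6.01 and -4.06 without LPS/IFNg replicates 1 and 3.

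Of the 99 listed markers of cell types other than microglia and macrophages 25 were tested, and 4 were called higher with LPS/IFNg and 5 lower (36.0%, beside 40.0% of all genes). Among oligodendrocyte markers Mbp, a myelin protein gene, differed by -2.84 ± 0.18 (adjusted p = 1.48e-06) and Mag, another myelin gene, by 1.58 ± 0.39 (adjusted p = 0.00845; 0.0718 without LPS/IFNg replicate 1), so they went in opposite directions. Of the oligodendrocyte list 1 member was higher and 1 lower, while 2 were higher without IL-4 replicate 1, none was higher without LPS/IFNg replicate 1 and 2 were lower without IL-4 replicate 3. Ccr7 and Clec9a, the 2 tested of 7 dendritic cell markers, were at least 4.7-fold and 3.53-fold higher with LPS/IFNg (adjusted p = 6.11e-07 and 1.33e-05), but were detected on no array of another group and so passed the detection limit only through the group where they are high. S100a8, a calcium-binding protein of neutrophils, was detected on no IL-4 array and was at least 4.85-fold higher with LPS/IFNg (adjusted p = 0.000231), and Csf3r, the receptor for granulocyte colony stimulating factor, differed by -0.62 ± 0.20 (adjusted p = 0.0292) and was not called without any 1 of LPS/IFNg replicates 1 and 3 and IL-4 replicates 1 and 3 (0.0648, 0.165, 0.0663 and 0.0608). Epor, the erythropoietin receptor, Cd79b, a B cell receptor chain, and Rbfox3, a neuronal splicing factor, were detected on neither LPS/IFNg array and were at least 2.43-fold, 1.93-fold and 1.21-fold higher with IL-4 (adjusted p = 7.75e-05, 0.0346 and 0.00647). Rbfox3 would not have passed the detection limit without the IL-4 arrays, so its higher level there follows from the limit. Cd79b was not called without IL-4 replicate 1 or 3 or LPS/IFNg replicate 1 or 3 (0.0904, 0.0803, 0.12 and 0.134), and Rbfox3 was not called without LPS/IFNg replicate 3 (0.0534). None of the 4 fibroblast and mural or 6 astrocyte markers was called by limma, while 2 astrocyte markers were called higher without IL-4 replicate 1 and 1 without TGFb replicate 2 or 3 or untreated replicate 3.

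Slides 1 and 2 each held arrays of both groups, so the comparison could be made within each. Slide 1 held LPS/IFNg replicate 1 with IL-4 replicates 1 and 2, and slide 2 held LPS/IFNg replicate 3 with IL-4 replicate 3. Of the 217 called genes among 237 chosen for description, all 217 had the same direction on slide 1 and on slide 2, and 213 were called with slide as a block. The 217 were called from these same arrays, and for 3568 of all 3577 called genes the groups did not overlap. A gene whose groups do not overlap has the same direction within each slide, so that agreement is no separate check. Calls on a slide alone are not counted here, because slide 2 has 1 array of each group and gives no spread of either. Whichever array was left out, 171 of the 217 stayed past the threshold.

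**Figure D5:**
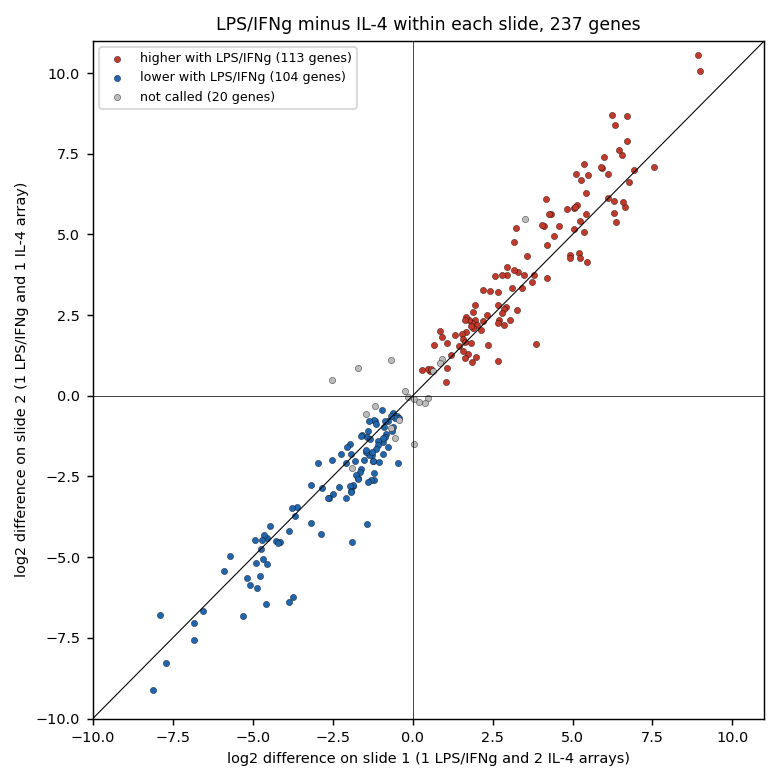
Log2 difference, LPS/IFNg minus IL-4, within slide 1 (horizontal axis, 1 LPS/IFNg and 2 IL-4 arrays) and within slide 2 (vertical axis, 1 array of each) for 237 genes, with the line of equal difference. Red genes were called higher, blue genes lower and grey genes not called. All 217 called genes lie in the quadrant of their direction on both slides, which follows for any gene whose groups do not overlap.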

How the data were processed

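RNA from 11 samples of cultured microglia was measured on Illumina mouse BeadChips, and the comparison concerns 2 LPS/IFNg and 3 IL-4 arrays. Per the file headers, the deposited scanner table gives for 45281 probes a mean bead intensity, linear and not normalized between arrays, with a detection p-value. The authors' value table is on the log2 scale. Compared with the scanner intensities, its values are quantile-normalized signals shifted per probe by slide, to within 0.00811 log2 units. Its array medians are 6.95 to 6.955. Partek is named in the submitters' processing notes; other steps were not given in the sources used here.

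Background correction and normalization used limma 3.58.1 (neqc, R 4.3.3), that is normexp estimated from detection p-values, an offset of 16, quantile normalization and log2. Probes detected (p below 0.01) on at least 2 of 11 arrays were kept, 15937 in all, of which 13765 carried 1 gene symbol, updated through Entrez identifiers in the RefSeq table (GRCm38.p6), and the probe with the highest mean represented each of 8952 genes. Of the 45281 probes 34885 had 1 symbol, 18 several and 10378 none. limma (lmFit, eBayes) was fitted to all 11 arrays with a mean per group (7 residual and 3.52 prior degrees of freedom), adjusted by the Benjamini-Hochberg method over all genes and called at an adjusted p below 0.05. Where a probe was detected on no array of a group, its fold is written as at least N: the brighter group's mean over the dimmer group's mean of, per array, the probe's value or the lowest value of any detected probe, whichever is larger. Other passing probes of called genes were called in the opposite direction in 17 cases, none for a gene named here. Probes of gene families with near-identical copies, such as Gbp, H2 and Chil genes, may share signal. Levels of different probes are not compared.

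Described genes are the 12 largest differences in each direction, the 10 brightest genes seen in only 1 group in each direction, up to 4 called members in each direction of every list, the ends of each list and a panel of 25 genes; others are marked. The members, lists and panel were chosen with earlier results of these data known. The arrays' number limits the precision. Alternatives were other background correction, scaling, detection limits, probes, the authors' table, slide and replicate number as blocks, single slides, array weights, robust eBayes, the 5 arrays alone, a fold limit in the test and leaving out each array. The code was tested on simulated data.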

Additional observations from a re-analysis of the deposited data

How the results depend on the processing

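The 3577 calls (1470 higher, 2107 lower) stayed within 1.5 times these counts with no background correction, the authors' table, other detection limits, slide as a fixed or random block (3504 and 3495), array weights, robust eBayes and the 5 arrays alone. Median scaling gave 953 higher. Slide 1 alone gave 834 (355 and 479), slide 2 alone 1502 (611 and 891), and a test against a log2 limit of 1 gave 718 (324 and 394). On slide 2 the LPS/IFNg, IL-4 and TGFb groups have 1 array each, so all spread in that fit comes from the untreated arrays. The calls of slide 2 alone therefore measure no spread of either compared group and are not read as support. Testing every passing probe gave 5579 calls, 2576 of them higher. Leaving out 1 array gave 2358 to 3725 calls, 985 to 1501 higher and 1373 to 2224 lower, with 2358 without LPS/IFNg replicate 3 and 2608 without LPS/IFNg replicate 1. Replicate number as a block gave 3664 calls on all 11 arrays and 2051 (816 higher, 1235 lower) on the 5 compared arrays. The groups share only the numbers 1 and 3, whose samples correlated at -0.01 and -0.04 in their deviations, so the numbers are not read as pairs. Cd74 was at -0.0701 on slide 2 alone and -0.00433 with array weights, Stat6 at 0.0352 on slide 1 alone and 0.00341 with the replicate block on 5 arrays, Gja1 at 0.856 on slide 2 alone and 0.653 with array weights, and Rpl24 at 0.0291 with slide as a block, 1.11 on slide 2 alone and 0.784 with array weights. Without 1 array these genes ranged from -0.0361 to 0.548, -0.0817 to 0.0137, -2.11 to 1.27 and -0.553 to 0.997. Leaving out IL-4 replicate 1 and blocking on slide, chosen after seeing the data, gave 3712 calls, with Cd74 at -0.0361, Gja1 at 1.27 and Rpl24 at 0.997. With the authors' table Fn1, Pdcd1lg2, Socs2 and Tmem119 were not called (adjusted p = 0.0727, 0.0615, 0.0622 and 0.163), Chil3 was not called with the 5 arrays alone (0.0511), and P2ry12 was called with the replicate block on 11 arrays (0.0127). The cause of these changes was not tested. Genes near the array background have only bounds.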

Other observations

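Of 14 tested complement components and receptors 3 were higher with LPS/IFNg, 1 lower and 10 not called (28.6% called, beside 40.0% of all genes). Without LPS/IFNg replicate 1 there was 1 higher and none lower, and without IL-4 replicate 1 or untreated replicate 2 there were 2 lower. Serping1, the C1 inhibitor, was at 9.13 and 9.32 with LPS/IFNg, detected on no IL-4 array and at least 17.9-fold higher (adjusted p = 8.86e-08). Of 26 tested lipid carriers and enzymes of lipid uptake and oxidation 2 were higher and 7 lower (34.6% called), and 1 was higher without either LPS/IFNg array or without IL-4 replicate 2 or 3. Fabp5, a fatty acid binding protein, differed by -1.95 ± 0.42 (adjusted p = 0.00421) and Acadm, a dehydrogenase of fatty acid oxidation, by -1.42 ± 0.19 (adjusted p = 0.000194). Of 22 tested G1 cyclins, cyclin-dependent kinase inhibitors and Gadd45 genes 6 were higher and 7 lower, the latter 4 without LPS/IFNg replicate 1. Of that list 59.1% were called, beside 40.0% of all genes. Gadd45b, a stress-response gene, differed by 3.42 ± 0.30 (adjusted p = 1.15e-05).

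Probes without a single gene symbol, 2172 after the detection filter, were tested in a fit of every passing probe, and 660 of them (30.4%) were called, 309 higher and 351 lower. ILMN_2607675 was at 12.03 and 12.45 with LPS/IFNg and at 5.45, 6.82 and 5.0 with IL-4, and ILMN_1232537 was at 5.56 and 5.65 with LPS/IFNg and at 10.82, 10.81 and 10.77 with IL-4. Both were chosen after their values were seen, and their genes are not named here.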
